A study of Mus musculus with 6 samples.

Results

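The homologous recombination core genes Brca1, Brca2, Bard1, Rad54l, Palb2, Mre11a, Rad50, Nbn and Blm were examined in LSK cells that lack Tet1 and in wild-type LSK cells. These are 9 of the 18193 genes named on the array, and they were read through every probe set to which the platform annotation gives exactly 1 gene symbol equal to one of these 9 names, which were 17 of the 45037 probe sets tested. LSK cells are marrow cells with Sca-1 and Kit on their surface and no mature lineage markers. Haematopoietic stem cells and early multipotent progenitors lie within this gate. The groups were Tet1 KO, with 3 samples, and WT, with 3 samples, and all 6 came from bone marrow of mice 6 months old whose strain the labels give as CD57BL/6, sorted by flow cytometry. RNA of each sample was measured on 1 Affymetrix array, a chip on which a set of short probes reports a stretch of a transcript, and values are log2 intensities as the authors deposited them. The labels give neither the Tet1 allele nor whether the samples are of separate mice, so that p-values reflect only how these samples spread.

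Homologous recombination repairs broken DNA by copying an intact sister chromatid, and it therefore works mainly in cells that have replicated their DNA. The MRN complex of Mre11a, Rad50 and Nbn binds the broken ends and starts to trim them. The ubiquitin ligase of Brca1 and Bard1 promotes the trimming, Palb2 joins Brca1 to Brca2, and Brca2 prepares the single-stranded DNA for strand exchange. The translocase Rad54l then promotes invasion of the sister chromatid, and the helicase Blm takes apart the joined DNA molecules that result. Haematopoietic stem cells are mostly quiescent, while the other progenitors of the LSK pool divide more often.

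The gate and the groups were checked first. At all 4 Tet1 probe sets the Tet1 KO arrays lay below the WT arrays without overlap, and the brightest read 6.26, 5.63 and 5.51 in Tet1 KO replicates 1, 2 and 3, against 6.89, 6.80 and 6.75 in WT replicates 1, 2 and 3. The sources used here do not say where the deletion lies relative to these probe sets. Of 10 listed LSK markers 8 were measured, among them Kit and Cd34, and their mean level was 9.23 to 9.50 on the Tet1 KO arrays, against 9.33 to 9.61 on the WT arrays. Of 7 measured T and NK cell markers 5 lay at or under the bacterial control level of 4.39, as did 3 of 7 B cell, 2 of 7 erythroid and 1 of 8 granulocyte and monocyte markers. This level, the mean over arrays of the brightest bacterial control, serves as a guide to background. Granulocyte and monocyte markers averaged 6.09 to 6.74 on the Tet1 KO arrays and 5.76 to 6.61 on the WT arrays. Tet1 KO replicate 2 stood apart. Its mean correlation with the WT arrays over all probe sets in the table was 0.942, against 0.976 and 0.975 for Tet1 KO replicates 1 and 3 and 0.982 to 0.983 among the WT arrays. Its values were compressed: probe sets with a WT mean of 2 to 4 had a median deviation of 0.29 from it, and those of 8 to 10 a median deviation of -0.28. Replicate 3 of both groups had low Xist, at 3.65 in Tet1 KO and 3.83 in WT, where the other 4 arrays read at least 11.58. The Y-linked gene Kdm5d read 9.16 and 8.30 on these 2 arrays, in Tet1 KO and WT in that order, and 3.43 to 3.90 on the other 4.

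The DNA before the starts of 3 members is shown here because these genes had among the largest differences or a probe set without overlap between the groups. The sequences are RefSeq's, in build GRCm38.p6, read 5′ to 3′ on the strand of the gene, and each ends where the annotated gene begins. Mre11a lies on the plus strand and its stretch is chr9:14784404-14784653. Rad54l and Bard1 lie on the minus strand, with stretches chr4:116123701-116123940 and chr1:71103142-71103222. Capitals mark a CCAAT box on either strand in Mre11a and Rad54l, and in Bard1 first a CHR match and then an E2F-type match.
Mre11a: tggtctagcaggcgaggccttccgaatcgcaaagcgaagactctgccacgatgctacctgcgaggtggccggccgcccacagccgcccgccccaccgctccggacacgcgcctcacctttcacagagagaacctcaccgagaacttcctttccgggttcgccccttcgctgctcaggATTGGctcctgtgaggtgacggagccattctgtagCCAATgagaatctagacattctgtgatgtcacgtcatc
Rad54l: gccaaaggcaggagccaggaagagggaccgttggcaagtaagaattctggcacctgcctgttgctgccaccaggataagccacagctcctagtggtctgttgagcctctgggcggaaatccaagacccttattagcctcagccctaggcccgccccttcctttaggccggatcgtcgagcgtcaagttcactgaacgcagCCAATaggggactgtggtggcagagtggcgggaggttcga
Bard1: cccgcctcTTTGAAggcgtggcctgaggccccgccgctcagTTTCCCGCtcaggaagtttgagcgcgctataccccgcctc

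The E2F-type site (searched as TTTGGCGC, TTTCGCGC, TTTCCCGC or TTTGGCGG) and the CHR element (TTTGAA or TTCGAA) are elements of genes that are switched on in the cell cycle, and the CCAAT box (CCAAT) is common in promoters. Promoter windows of 300 bases, with 250 before the start and 50 after it, were matched for 7 of the 9 members by symbol, and Rad50 and Nbn had no entry. On either strand, a CCAAT box was found in 5 of the 7, Mre11a, Rad54l, Brca1, Palb2 and Blm, where 37.4% of 32851 such windows hold one. An E2F-type match was found in 2 of the 7, Bard1 and Brca2, where 2.37% of all windows hold one. A CHR match was found in 1 of the 7, Bard1, where 19.2% of all windows hold one. The 7 members had between 13 and 32 CpG dinucleotides in the window, against a median of 7 over all windows. These matches describe letters in the windows and not bound sites.

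No homologous recombination probe set passed the test between Tet1 KO and WT cells. In limma with Benjamini-Hochberg adjustment over all 45037 probe sets, 0 of the 17 had an adjusted p under 0.05 on the higher side and 0 on the lower side, where 0% and 0% of all probe sets did. The lowest adjusted p among the 17 was 0.686. At an unadjusted p under 0.05, 0 of the 17 were higher and 0 lower, where 3.23% of all probe sets were higher and 3.58% lower. The difference in log2, Tet1 KO minus WT, was positive at 10 and negative at 7 of the 17, with a median of 0.095, against 0.056 over all probe sets tested. Without Tet1 KO replicate 2 it was positive at 9 and negative at 8, with a median of 0.024. Every 95% interval of the 17 included 0, and an interval that includes 0 does not show that the groups were alike. The groups did not overlap at 1 probe set that was higher in Tet1 KO, of Rad54l, and at 1 that was lower, of Rad50, where 9.96% and 6.29% of all probe sets did so.

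**Figure D1:**
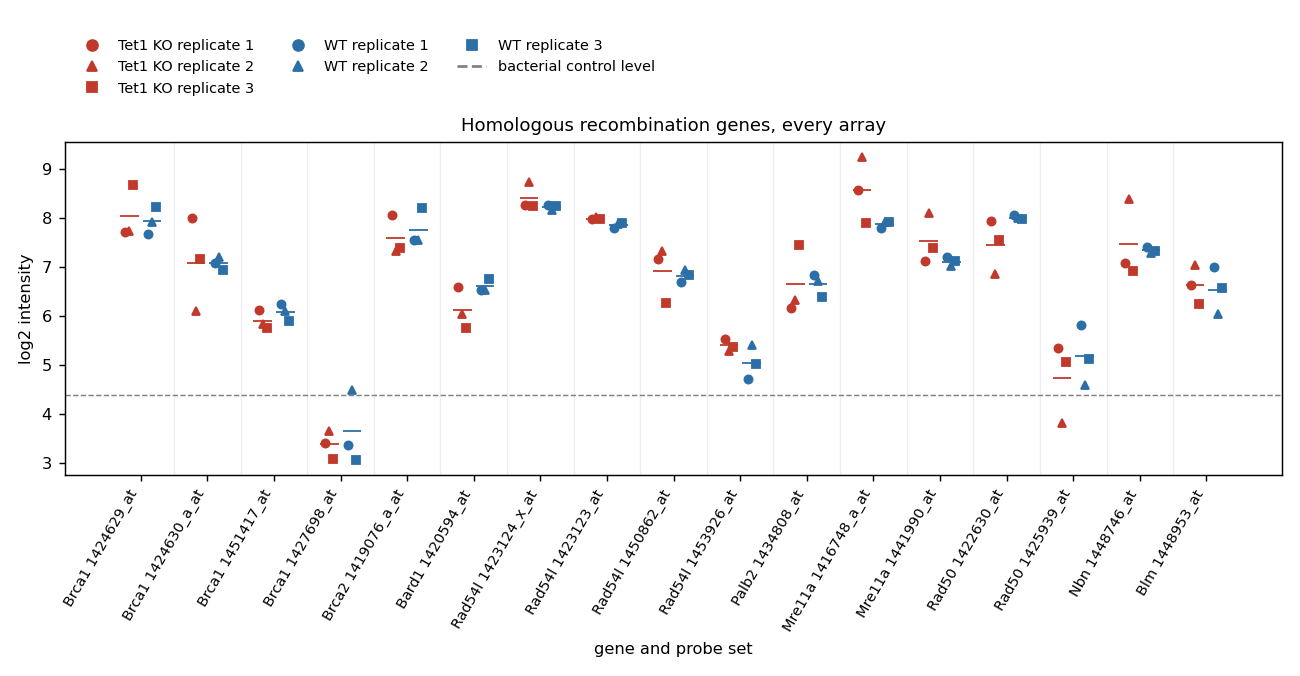
Log2 intensity of each of the 17 probe sets (horizontal axis, by gene) on every array, with Tet1 KO in red left of WT in blue, marker shapes for replicates 1, 2 and 3, short lines for group means and a dashed line at the bacterial control level of 4.39. The WT arrays lie close together at Mre11a, Rad50 1422630_at and Nbn, while the Tet1 KO arrays spread, and Brca1 1427698_at lies mostly under the dashed line.

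**Figure D2:**
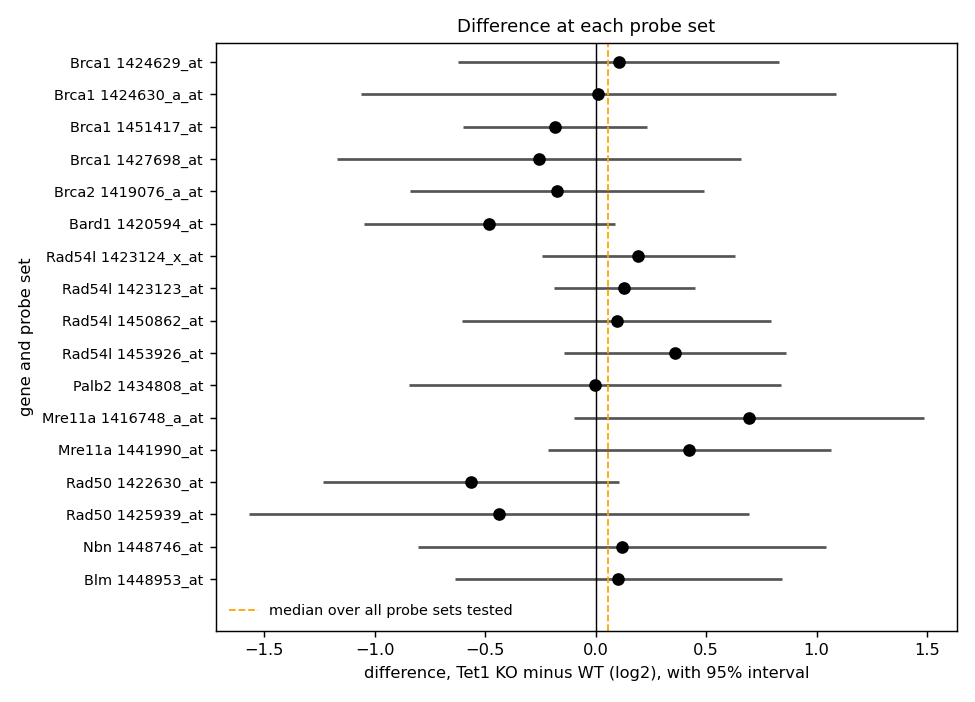
Difference of each probe set in log2, Tet1 KO minus WT (points), with its 95% interval from limma (lines, 3 arrays per group), and the median over all probe sets tested as a dashed line at 0.06. All 17 intervals include 0, and the differences run from -0.56 at Rad50 to 0.69 at Mre11a.

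Within the MRN complex, Mre11a read higher on average and Rad50 lower in Tet1 KO cells, and neither passed the test. Mre11a, the nuclease of the complex, read 8.57, 9.25 and 7.90 in Tet1 KO replicates 1, 2 and 3 at its brightest probe set, 1416748_a_at, against 7.80, 7.92 and 7.93 in WT replicates 1, 2 and 3. Replicates 1 and 2 of Tet1 KO were above all WT arrays, and Tet1 KO replicate 3 lay among them. The means were 8.57 ± 0.68 in Tet1 KO and 7.88 ± 0.07 in WT (SD, n = 3 each), a difference of 0.69 (95% interval -0.10 to 1.49) with a limma adjusted p of 0.686. The other Mre11a probe set, 1441990_at, read 7.12, 8.11 and 7.39 in Tet1 KO, against 7.20, 7.02 and 7.12 in WT. Here Tet1 KO replicates 2 and 3 were above the WT arrays and replicate 1 was among them, and the difference was 0.42 (95% interval -0.22 to 1.06). Without Tet1 KO replicate 2, the differences of the Mre11a probe sets were 0.36 and 0.14.

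Rad50, the ATPase that tethers DNA ends, read 7.94, 6.85 and 7.55 in Tet1 KO replicates 1, 2 and 3 at probe set 1422630_at, against 8.06, 7.998 and 7.98 in WT replicates 1, 2 and 3. All 3 Tet1 KO arrays were below all 3 WT arrays, with replicate 1 only just below. The means were 7.45 ± 0.55 in Tet1 KO and 8.01 ± 0.04 in WT (SD, n = 3 each), a difference of -0.56 (95% interval -1.23 to 0.11) with a limma adjusted p of 0.686. At the dimmer probe set 1425939_at the values were 5.35, 3.82 and 5.06 in Tet1 KO, against 5.82, 4.60 and 5.12 in WT, and the groups overlapped. Its difference was -0.44 (95% interval -1.57 to 0.70). Without Tet1 KO replicate 2, the Rad50 differences were -0.27 and 0.02.

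Nbn, the subunit that passes the break signal to the kinase Atm, has 1 probe set. It read 7.08, 8.39 and 6.92 in Tet1 KO replicates 1, 2 and 3, against 7.41, 7.28 and 7.34 in WT replicates 1, 2 and 3. Tet1 KO replicate 2 was above all WT arrays, while Tet1 KO replicates 1 and 3 were below all of them. The difference was 0.12 (95% interval -0.80 to 1.04). Without Tet1 KO replicate 2 it was -0.34, with an unadjusted limma p of 0.049 and an adjusted p of 0.622. In that fit 3607 of all 45037 probe sets had an unadjusted p under 0.05. Without Tet1 KO replicate 3 the Nbn difference was 0.39. On the array of Tet1 KO replicate 2 the 5 probe sets of the complex lay far from the WT mean in both directions. They were at 1.37 and 1.00 for Mre11a, 1.05 for Nbn, and -1.16 and -1.35 for Rad50. Over all probe sets the median absolute deviation of that array from the WT mean was 0.40, and 0.50 among those with a mean of 6 to 9. Its median signed deviation was 0.18 at a WT mean of 4 to 6, -0.22 at 6 to 8 and -0.28 at 8 to 10. The part of the array's general shift in these values was not tested.

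**Figure D3:**
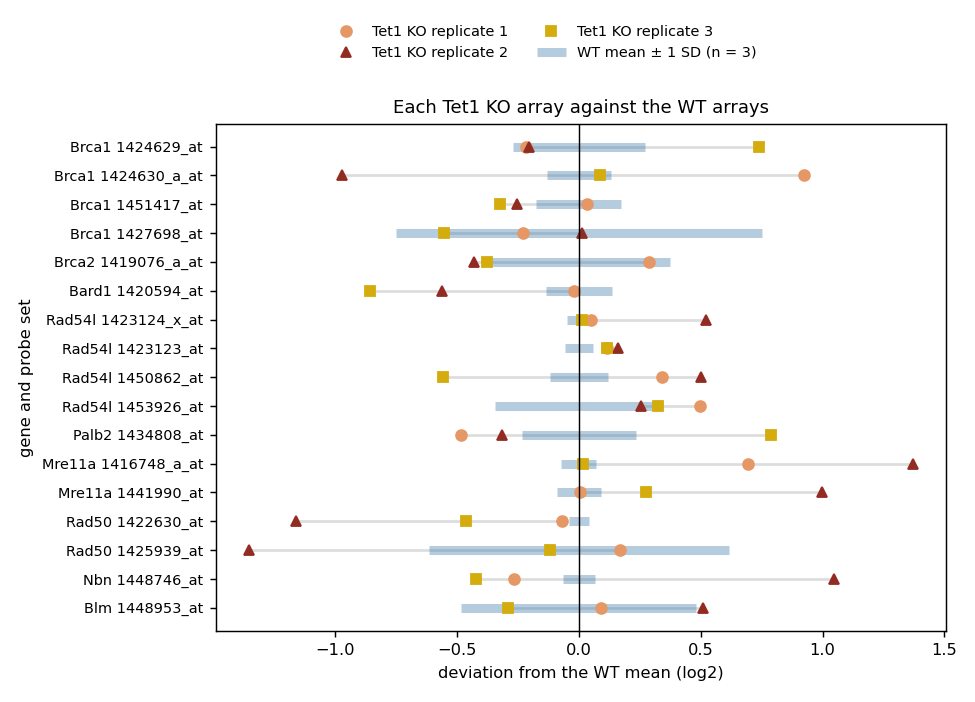
Deviation of each Tet1 KO array from the WT mean in log2 (horizontal axis) at each of the 17 probe sets, with a marker per Tet1 KO replicate, and blue bars for the WT mean ± 1 SD of 3 arrays. Replicate 2 lies farthest from the WT mean at all 5 probe sets of Mre11a, Rad50 and Nbn, to the right for Mre11a and Nbn and to the left for Rad50.

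Brca1 and Bard1, which form a ubiquitin ligase together, overlapped between the groups at every probe set. Bard1 has 1 probe set, which read 6.59, 6.05 and 5.75 in Tet1 KO replicates 1, 2 and 3, against 6.53, 6.54 and 6.77 in WT replicates 1, 2 and 3. Tet1 KO replicates 2 and 3 were below the WT arrays and replicate 1 was among them. The means were 6.13 ± 0.42 in Tet1 KO and 6.61 ± 0.14 in WT (SD, n = 3 each), a difference of -0.48 (95% interval -1.05 to 0.09) with a limma adjusted p of 0.686. Unlike the MRN values, this difference was much the same without Tet1 KO replicate 2, at -0.44. It was -0.71 when Tet1 KO replicate 1 was left out and -0.29 when Tet1 KO replicate 3 was.

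Brca1, the scaffold of the pathway, has 4 probe sets, of which 2 had a positive and 2 a negative difference. The brightest, 1424629_at, read 7.72, 7.73 and 8.68 in Tet1 KO, against 7.68, 7.93 and 8.22 in WT, and its difference was 0.10 (95% interval -0.62 to 0.83). Probe set 1424630_a_at read 8.001, 6.10 and 7.16 in Tet1 KO, against 7.07, 7.21 and 6.95 in WT. Here the Tet1 KO arrays spread over both sides of the narrow WT range, with an SD of 0.95 in Tet1 KO and 0.13 in WT, and the difference was 0.011. Probe set 1451417_at read 6.12, 5.83 and 5.76 in Tet1 KO, against 6.25, 6.10 and 5.91 in WT, and the difference was -0.18 (95% interval -0.60 to 0.23). The last, 1427698_at, had a mean of 3.52 over all 6 arrays, under the bacterial control level, and was the only one of the 17 under it. The first 3 are annotated to the same transcript record, yet Tet1 KO replicate 1 was the highest of its group at 2 of them and Tet1 KO replicate 3 at the other.

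The mediators Brca2 and Palb2 overlapped between the groups. Brca2, which acts on the trimmed single-stranded DNA, read 8.06, 7.34 and 7.39 in Tet1 KO replicates 1, 2 and 3, against 7.55, 7.55 and 8.20 in WT replicates 1, 2 and 3. In each group 1 array was high and 2 were low, and the difference was -0.17 (95% interval -0.84 to 0.49). Palb2, the bridge between Brca1 and Brca2, read 6.17, 6.34 and 7.44 in Tet1 KO, against 6.85, 6.72 and 6.39 in WT. Its Tet1 KO arrays lay on both sides of the WT range, so that the difference was -0.0049 while the SD was 0.69 in Tet1 KO and 0.24 in WT. The 95% interval of the Palb2 difference was -0.85 to 0.84.

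Rad54l, the motor protein of strand exchange, had a positive difference at all 4 of its probe sets. At probe set 1423123_at it read 7.97, 8.02 and 7.97 in Tet1 KO replicates 1, 2 and 3, against 7.80, 7.87 and 7.91 in WT replicates 1, 2 and 3. The groups did not overlap there and both were tight, but the difference was small, at 0.13 (95% interval -0.19 to 0.45), with a limma adjusted p of 0.744. Between replicates the SD of this probe set was 0.03 in Tet1 KO and 0.06 in WT, the smallest Tet1 KO spread among the 17. The probe set 1423124_x_at, whose suffix marks probes that may also bind other transcripts, read 8.27, 8.75 and 8.24 in Tet1 KO, against 8.27, 8.17 and 8.24 in WT. Its difference of 0.19 was 0.03 without Tet1 KO replicate 2. Probe set 1450862_at differed by 0.09 and was at -0.11 without Tet1 KO replicate 2. The dimmest, 1453926_at, read 5.54, 5.30 and 5.37 in Tet1 KO, against 4.71, 5.41 and 5.02 in WT, with overlap and a difference of 0.36 (95% interval -0.14 to 0.86). The 3 brighter probe sets of Rad54l share a transcript record and are not independent.

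Blm, the helicase that dissolves joint molecules, read 6.63, 7.05 and 6.25 in Tet1 KO replicates 1, 2 and 3, against 7.01, 6.04 and 6.57 in WT replicates 1, 2 and 3. Both groups covered nearly the same range, with an SD of 0.40 in Tet1 KO and 0.48 in WT. The difference was 0.10 (95% interval -0.64 to 0.84).

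The Tet1 KO arrays spread more widely than the WT arrays at most member probe sets, as on the whole array. The SD between replicates was larger in Tet1 KO than in WT at 13 of the 17 probe sets, or 76.5%, where 71.9% of all probe sets had the larger SD in Tet1 KO. The median SD of the 17 was 0.51 in Tet1 KO and 0.14 in WT, and over all probe sets it was 0.30 in Tet1 KO and 0.17 in WT. Replicate 2 was the Tet1 KO array farthest from the WT mean at 10 of the 17, or 58.8%, against 56.3% of all probe sets, so both shares were near those of the whole array. Since all Tet1 KO arrays were shifted with level, the members were also set beside probe sets of like brightness, in a band chosen after seeing the data. Of the 13 member probe sets with a mean of 6 to 9, 9 had a positive difference, 3 of them of Rad54l, with a median of 0.10, while 36.9% of all 14145 probe sets in that band did, with a median of -0.12. Brca1 1451417_at, with a mean of 5.996 and a difference of -0.18, fell just under the lower edge of the band and is not counted. The median deviation of these 13 from the WT mean was 0.05, 0.16 and 0.01 in Tet1 KO replicates 1, 2 and 3. Over the band it was -0.07, -0.20 and -0.06. By gene, at the brightest probe set, 5 of the 9 members were positive, against 36.2% of 6934 genes in the band. Here the median deviation of the 9 was -0.02, -0.21 and -0.29 in Tet1 KO replicates 1, 2 and 3. Over the genes of the band it was -0.07, -0.18 and -0.08, so the members were not higher on every array.

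The other genes of the pathway were read from lists of partners, with the brightest probe set for each gene. Of 54 measured partner genes 0 had an adjusted p under 0.05 in limma. At an unadjusted p under 0.05, 0 were higher and 6 lower, where 3.02% of all 18193 genes were higher and 3.7% lower. Of the 6934 genes with a mean of 6 to 9, 121 were higher and 437 lower at that threshold. Unlike the members above, the partner lists were not limited to this band, so its shares are only a rough guide for them. Sem1, for example, is among the Brca1 and Brca2 complex partners and had a mean of 11.3. Partners of the Brca1 and Brca2 complexes had a negative difference at 10 of 11 measured genes, where 43.5% of all genes and 63.8% of genes with a mean of 6 to 9 did, with 3 at an unadjusted p under 0.05 and a median of -0.23, against 0.05 over all genes and -0.12 over genes with a mean of 6 to 9. Uimc1, which brings Brca1 to ubiquitin chains at breaks, read 7.21, 7.14 and 6.75 in Tet1 KO, against 7.56, 7.46 and 7.60 in WT, a difference of -0.51 (limma adjusted p 0.686). Psmc3ip, a cofactor of strand exchange that was counted in this list, differed by -0.42 at its brighter probe set and by -0.01 at the other. Emsy, which binds Brca2, differed by -0.70 at its brightest probe set and by 0.19, 0.04 and -0.22 at the others, the first of them under the bacterial control level. The Emsy difference was -0.39 without Tet1 KO replicate 2 and -0.17 when its probe sets were averaged. At the brightest probe set of these 3 genes, named for having the smallest p of their list, the Tet1 KO arrays lay below the WT arrays without overlap, as did 6.88% of all genes and 11.2% of genes with a mean of 6 to 9.

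The other 3 partner lists are given beside the same shares, a negative difference at 43.5% of all genes and at 63.8% of genes with a mean of 6 to 9. The medians of these 2 sets were 0.05 and -0.12. These lists too hold genes outside the band, such as Dmc1 with a mean of 3.54, Slx1b with 5.07 and Rpa1 with 10.9. Strand exchange partners had a negative difference at 14 of 19 measured genes, or 73.7%, with a median of -0.16. In this list 1 gene had an unadjusted p under 0.05. That gene was Swsap1, which read 4.03, 3.15 and 3.92 in Tet1 KO, against 4.48, 4.45 and 4.77 in WT, so that the Tet1 KO arrays were all under the bacterial control level. Swi5, which acts in strand exchange, differed by -0.46. The helicase Mcm9 differed by 0.48 at its brightest probe set, or 0.26 without WT replicate 1, and by -0.26, 0.05 and -0.25 at the others. Among partners that dissolve or cut joint molecules, 7 of 12, or 58.3%, had a negative difference, with a median of -0.13. Slx1b, the nuclease subunit that works with the scaffold Slx4, differed by -1.03 at its brightest probe set and by 0.01 and 0.17 at the others. Rmi2, of the complex around Blm, differed by -0.52, and Slx4 by 0.43, or 0.16 without Tet1 KO replicate 2. The partners in break sensing and end trimming had a negative difference at 8 of 12, or 66.7%, and a median of -0.02. Of these, 0 had an unadjusted p under 0.05. The genes named from that list, by the smallest p, were Rif1, the helicase Wrn and the nuclease Dna2. Rif1 had a log2 difference of 0.61, which was 0.33 without Tet1 KO replicate 2 and -0.066 when its probe sets were averaged. Wrn had a log2 difference of -0.64, or -0.24 without WT replicate 2, which read 9.91, and its other probe sets differed by -0.12 and 0.23. Dna2 had a log2 difference of -0.80 at its brightest probe set and of -0.05 and 0.04 at the others. The Dna2 value rested on Tet1 KO replicate 2, without which it was -0.0049, and it was -1.26 without Tet1 KO replicate 1.

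**Figure D4:**
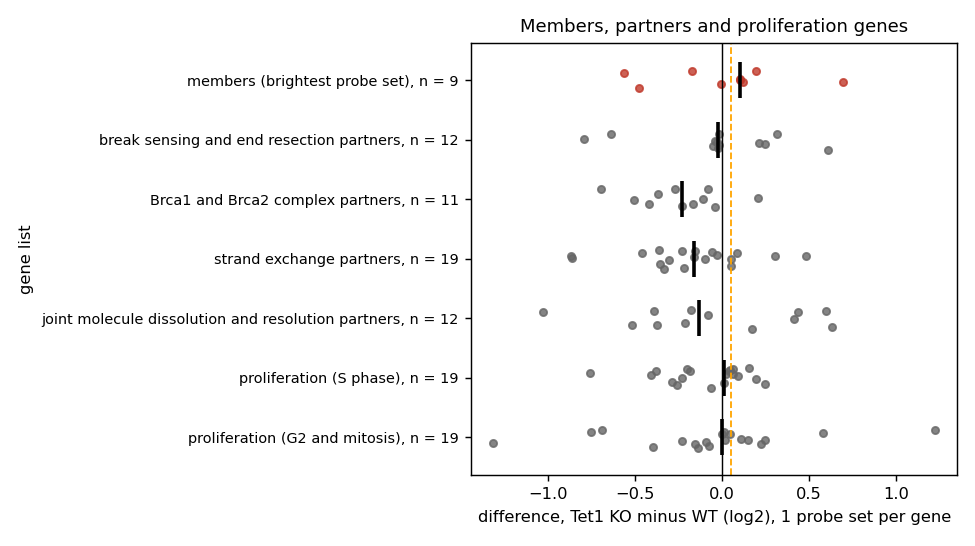
Difference in log2, Tet1 KO minus WT (horizontal axis), of each gene at its brightest probe set, by list, with the 9 members in red on top, a black bar for the median of each list and a dashed line at the median of all genes, 0.05. The members scatter on both sides of 0, and the median of the Brca1 and Brca2 complex partners lies at -0.23.

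As recombination genes are made mainly in dividing cells, proliferation genes are given beside them. Of 19 measured S phase genes 10 had a positive and 9 a negative difference, with a median of 0.01, and of 19 G2 and mitosis genes 10 were positive and 9 negative, with a median of 0.00081. The negative share was 47.4% in each list, against 43.5% of all genes. None passed the adjusted threshold. At an unadjusted p under 0.05, 0 were higher and 1 lower in each list, where 3.02% and 3.7% of all genes were. The genes named next are the 3 of each list with the smallest p, and all had a negative difference. Among the positive ones not so named, Kif20a differed by 1.23, Ccna2 by 0.58 and Mki67 by 0.22. The kinase gene Cdk1, which drives entry into mitosis, read 8.54, 8.04 and 8.11 in Tet1 KO, against 8.93, 9.10 and 8.92 in WT, a difference of -0.76 (unadjusted limma p 0.00523, adjusted p 0.686). Tk1, of nucleotide salvage, differed by -0.76, or -0.48 without WT replicate 2. Ccne2 differed by -0.38, or -0.25 without WT replicate 3, and Pcna, the replication clamp, by -0.29, or -0.14 without Tet1 KO replicate 2. The survivin gene Birc5 differed by -1.32, with WT replicate 1 at 10.90 and the other WT arrays at 8.64 and 8.96, and it was at -0.62 without WT replicate 1. Bub1, of the spindle checkpoint, differed by -0.69 at its brightest probe set and by 1.13 at the other, and the first was at -0.43 without WT replicate 3. In bulk RNA, fewer cells of a type and less RNA per cell cannot be told apart.

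The mean profile of the members' brightest probe sets varied little over the 6 arrays, at 0.01, 0.09 and -0.09 in Tet1 KO replicates 1, 2 and 3 and at 0.02, -0.09 and 0.07 in WT replicates 1, 2 and 3, each member centred on its own mean. Among 12955 genes above the bacterial control level, the profiles most like it were those of Tecpr1, with a Pearson correlation of 0.98, Rala, with 0.97, Snw1 and Ngp, with 0.96 each, and Emc8, with 0.96. These values rest on 6 arrays and on a profile in which Mre11a and Rad50 partly cancel, and they are a description. Ngp is a granule gene of neutrophils and stands in the granulocyte marker list, and its part in the profile was not tested.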

How the data were processed

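The deposited table held a log2 intensity for each of 45101 probe sets on each array, and the log2 scale was read from the range of 1.50 to 14.6. How the authors corrected, normalized and summarized the intensities was not stated in the labels. Per the labels' protocols, cDNA was made from 125 ng of RNA. Array medians differed by 0.0694, and the values were used as deposited, with no filter. Names came from the platform annotation, by which 34958 probe sets had 1 symbol and 932 several. For counts by gene, a gene's brightest probe set by its mean of 6 arrays was used.

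Tet1 KO was compared with WT over 45037 probe sets, leaving out 64 controls, in limma 3.58.1 under R 4.3.3 (lmFit and eBayes, genotype as the only term, two-sided, Benjamini-Hochberg, threshold 0.05). Values are means ± SD. An exact permutation test of 3 against 3 cannot go below 0.1. Simulated data with known changes served to test the fit. At 3 arrays per group the precision is low. Samples were grouped by their titles. The members, lists and tests were chosen with earlier results of these data known. Named were all members, Tet1, the 3 genes of each list with the smallest p, and the 5 genes with the most similar profile; further genes were named as markers. Alternatives were other normalizations, filters, choices of probe sets, variance models, array weights, the replicate block, leaving out each array and, added later, the Xist-low state as a covariate. Figures were drawn with matplotlib 3.10.9.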

Additional observations from a re-analysis of the deposited data

How the results depend on the processing

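No member probe set had an adjusted p under 0.05 under any of the 17 alternatives run, and over all probe sets limma called 0 at the chosen settings, where 3065 had an unadjusted p under 0.05, and 1 lower probe set with an intensity trend and robust estimation. Of the 17 member probe sets, 8 kept the sign of their difference under each alternative that gave them a value; these were 15 to 17 alternatives, since the choices of 1 value per gene leave out or merge the dimmer probe sets. The unadjusted count over all was 1713 above the bacterial control level, 1311 with the brightest and 1446 with the mean of probe sets per gene, all with fewer features tested, and 1558 to 4627 without 1 array. Members at an unadjusted p under 0.05 numbered 0 to 1 on the higher and 0 to 2 on the lower side without 1 array: Mre11a 1441990_at (0.63), Bard1 (-0.71) and Rad50 1422630_at (-0.81) without Tet1 KO replicate 1, Mre11a 1416748_a_at (1.03) without Tet1 KO replicate 3, Nbn (-0.34) without Tet1 KO replicate 2 and Rad54l 1453926_at (0.54) without WT replicate 2. Over all 45037 probe sets, 2291 were higher and 2336 lower at that unadjusted threshold without Tet1 KO replicate 1. The counts were 1735 higher and 1872 lower without Tet1 KO replicate 2, and 1753 and 2125 without Tet1 KO replicate 3. Without WT replicate 2 they were 580 and 987. The member median of 0.095 was 0.17 with quantile normalization and with cyclic loess, -0.0049 with averaged probe sets, 0.018 with array weights, and -0.025 to 0.11 without 1 array. With averaged probe sets, Brca1 reversed to -0.081, Rif1 to -0.066 and Bub1 to 0.22. Palb2 reversed to 0.088 with quantile normalization, 0.071 with cyclic loess and 0.019 with array weights, and Nbn to -0.17 with array weights. Without 1 array the ranges were -0.21 to 0.27, -0.45 to 0.50 and -0.55 to 0.17 for Brca1 1424629_at, 1424630_a_at and 1427698_at, -0.40 to 0.043 for Brca2, -0.11 to 0.42 for Rad54l 1450862_at, -0.40 to 0.23 for Palb2, -0.74 to 0.024 for Rad50 1425939_at, -0.34 to 0.39 for Nbn and -0.15 to 0.34 for Blm. List medians without 1 array ran from -0.31 to -0.16 for Brca1 and Brca2 complex partners, -0.24 to -0.064 for strand exchange, -0.18 to 0.025 for joint molecules, -0.12 to 0.057 for S phase and -0.18 to 0.070 for G2 and mitosis. The median of the Brca1 and Brca2 complex partners was also -0.16 with quantile normalization, -0.11 with cyclic loess and -0.15 with averaged probe sets. That of strand exchange was 0.0055 with averaged probe sets and -0.074 with array weights, and that of S phase 0.12 with cyclic loess and -0.15 with averaged probe sets. The cause of these moves was not tested.

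The labels do not say what a replicate number marks, and only replicate 3 of both groups shared a visible trait, low Xist with high Kdm5d. Deviations of same-numbered samples correlated at 0.0127, -0.00632 and 0.000539. With the replicate block, 2396 probe sets had an unadjusted p under 0.05, and no member changed its call. Depth does not apply to arrays; 1 member, Brca1 1427698_at, had a mean under the bacterial control level.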
